A study of Homo sapiens with 15 samples.

Results

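The imprinted growth genes described here are H19, IGF2, MEG3, DLK1, PEG3, PEG10, MEST, SNRPN, GRB10 and PLAGL1. They are 10 of the 48777 genes in the deposited bulk RNA-seq tables and were found in them by their GENCODE symbols, from a list of names drawn up when other results of these data were known. All 10 were listed in both the count table and the TPM table. The cells were H1, a widely used human embryonic stem cell line, taken through a protocol for cardiac progenitors. There were 15 libraries, with 3 replicates at each of days 0, 4, 9, 11 and 20. The labels place every culture on the laminins LN-521 and LN-221, whereas in the deposited sample table the 3 libraries of day 0 are entered under LN-521 only. Day 0 cells were undifferentiated cells in Nutristem medium, and day 4 cells were the confluent cultures at which differentiation started. From day 4 the medium was RPMI with B27 without insulin, first with CHIR99021, an inhibitor of the kinase GSK3 that activates WNT signalling, and from day 7 with IWP2, which blocks WNT secretion. Day 9 and day 11 were the next times of a medium change, and the growth protocol gives RPMI with CTS B-27 from day 11 on, thus for the day 20 cells. The values are totals per gene from a single line. They carry no allele information, so which parental copy was expressed was not measured.

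Imprinted genes are expressed mainly from the copy inherited from one parent, and the choice is carried by DNA methylation laid down in the germ line. IGF2, DLK1, PEG3, PEG10, MEST, SNRPN and PLAGL1 are usually expressed from the paternal copy, H19 and MEG3 from the maternal copy, and GRB10 from either copy depending on the tissue. Many are part of a set of genes that is highly expressed in the fetus and placenta and controls growth: IGF2 is a growth factor, DLK1 a transmembrane protein related to the Notch ligands, PLAGL1 a zinc finger transcription factor and GRB10 an adaptor that dampens insulin and IGF receptor signalling. H19 and MEG3 are long noncoding RNAs that share an imprinted region with IGF2 and with DLK1 respectively.

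RefSeq start sites were at hand for 6 members (H19, PLAGL1, MEG3, SNRPN, MEST and GRB10), with 23 windows of 250 bases upstream of a start. The motif TGCCGC, which ZFP57 binds when methylated to keep imprints, was found on either strand in 8 of these windows, which belong to 5 of the 6 members, and in 12.7% of 34943 windows of the same length over all genes. The MEG3 windows start at 100825858, 100825868 and 100825882, overlap and hold the same match, so the 8 windows are not 8 separate sites. The motif GGGGCCCC, bound by PLAGL1, was found in 1 of the 23 windows and in 1.77% of all windows. A match is a description of the letters and not a measured site. The stretches below lie upstream of starts of the most abundant noncoding member, of the member that encodes a transcription factor, of the member closest to silence among those tested, and of the start that SNRPN shares with SNURF. They are given 5′ to 3′ on the gene's strand (GRCh38), in lower case with either motif in capitals, and end where annotated untranslated bases begin.
H19, chr11:2001267-2001516, minus strand: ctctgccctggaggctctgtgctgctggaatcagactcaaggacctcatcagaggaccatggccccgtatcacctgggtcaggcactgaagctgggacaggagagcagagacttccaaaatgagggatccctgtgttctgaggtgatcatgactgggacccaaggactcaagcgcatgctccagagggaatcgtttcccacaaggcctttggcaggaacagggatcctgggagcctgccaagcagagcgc
PLAGL1, chr6:144008431-144008509, minus strand: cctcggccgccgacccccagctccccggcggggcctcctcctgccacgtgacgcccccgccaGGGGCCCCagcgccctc
MEG3, chr14:100825858-100826107, plus strand: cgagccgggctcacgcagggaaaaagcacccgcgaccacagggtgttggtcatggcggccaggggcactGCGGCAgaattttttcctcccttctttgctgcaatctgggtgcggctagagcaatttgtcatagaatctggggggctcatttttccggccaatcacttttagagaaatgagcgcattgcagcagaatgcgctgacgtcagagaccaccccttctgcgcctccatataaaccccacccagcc
SNRPN, chr15:24954737-24954934, plus strand: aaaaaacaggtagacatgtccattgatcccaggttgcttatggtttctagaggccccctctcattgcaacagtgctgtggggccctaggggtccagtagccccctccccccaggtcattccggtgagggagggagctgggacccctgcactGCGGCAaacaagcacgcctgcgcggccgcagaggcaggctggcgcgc
In these stretches the H19 sequence held neither motif, the PLAGL1 sequence held the motif of its own product from base 63, and the MEG3 and SNRPN sequences each held the ZFP57 motif, written here on the reverse strand, from bases 70 and 152. Past the printed ends, the full PLAGL1 window held the ZFP57 motif from bases 152 and 160. The full SNRPN window held it again from base 227. An exon of H19 also holds the hairpin of miR-675, a microRNA that is cut from the H19 transcript. Its mature strands, with the seed (bases 2 to 8) in capitals, are given because the host RNA is among the most abundant members from day 9 on.
hsa-miR-675-5p: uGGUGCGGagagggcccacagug
hsa-miR-675-3p: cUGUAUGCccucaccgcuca
The mature microRNAs themselves were not analysed here.

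The libraries held between 11990302 and 33469703 counts, with a median of 22867831. RNA integrity numbers lay between 8.8 and 10 in 14 libraries and at 6.1 in the day 20 library of plate 2_3, which also had a count in 48230 genes against 30886 to 39551 in the others. That library stands apart. Most member fold changes from day 0 to day 20 and the day 20 differences in ratios of neighbouring genes are also given without it. Other day 20 means and counts include it. The reads of plate 2_3 were spread over genes that are otherwise silent. Called silent genes here are 174 autosomal protein-coding genes of at least 2000 bases with 2 counts or fewer in the 12 earlier libraries together. All 174 had a count in plate 2_3, at a median of 11.0 reads per kilobase, against 33 in plate 2 and 132 in plate 6_1 of the same day. A gene of 57 bases took 20.0% of all TPM in the third library of day 0, and in day 9 plate 2 it took 17.0%, and at most 0.370% of counts in any library, so the TPM of all other genes are lower in those 2 libraries. Levels are given below as TPM, which is scaled by gene length, and differences as log2 fold changes from counts. The 10 pluripotent cell markers summed to 7226 to 11328 TPM on day 0 and to 125 to 144 TPM on day 20. The 12 cardiomyocyte markers summed to between 49.0 and 61.8 TPM on day 0, to 7268 to 27526 TPM on day 11 and to 6986 to 28651 TPM on day 20. These sums follow the labelled days, whereas no cardiomyocyte marker was at 0 in any library, those of days 0 and 4 included.

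**Figure D1:**
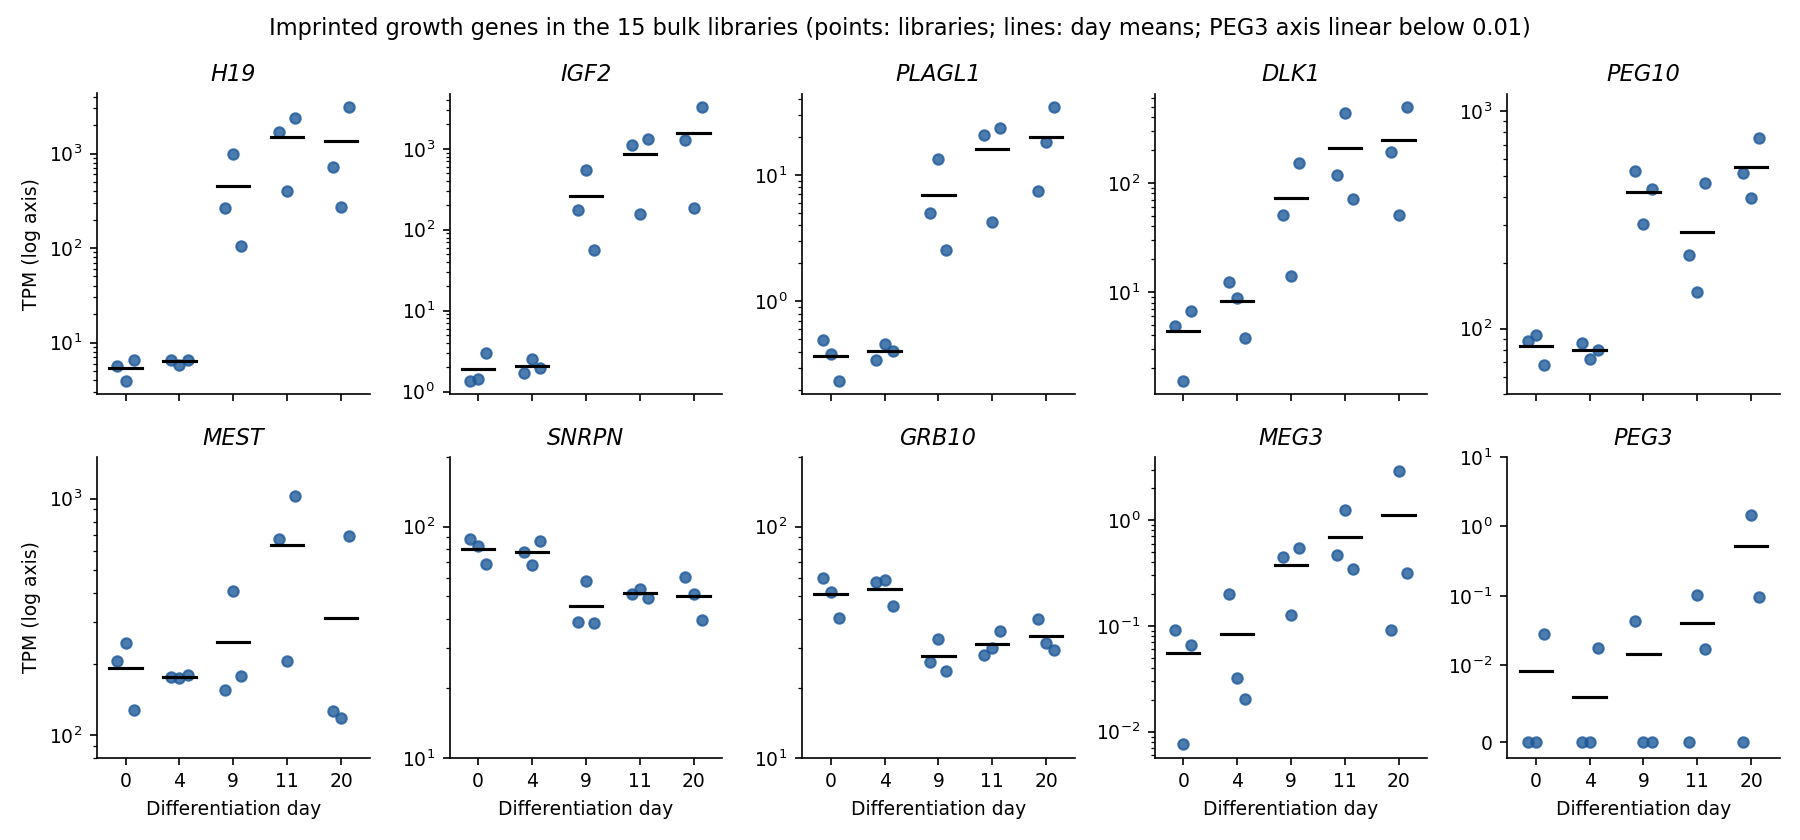
Each panel plots the TPM of 1 gene on a log axis (for PEG3 linear below 0.01) against differentiation day, with a point per library and a line at the mean of 3. H19, IGF2, PLAGL1 and PEG10 lie higher in every library from day 9 on than in any library of days 0 and 4, and SNRPN and GRB10 lie lower. Each panel has its own axis, and MEG3 and PEG3 have the lowest means of all members on every day.

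In undifferentiated cells the members fell into a high and a low group. On day 0, MEST, an enzyme of the alpha/beta hydrolase fold expressed in embryonic mesoderm, stood at 192 ± 59.1 TPM (SD, n = 3), PEG10, a retrotransposon-derived gene needed for the placenta, at 83.1 ± 13.0 TPM, SNRPN, which encodes a small nuclear ribonucleoprotein, at 79.8 ± 9.67 TPM, and GRB10 at 50.9 ± 9.98 TPM. H19 stood at 5.40 ± 1.33 TPM, DLK1 at 4.34 ± 2.59 TPM, IGF2 at 1.91 ± 0.905 TPM and PLAGL1 at 0.37 ± 0.13 TPM. MEG3 was at 0.05 TPM on average and PEG3, a zinc finger gene, had a single read in the 3 libraries. PEG10 and SNRPN overlapped, as did H19 with DLK1, DLK1 with IGF2, and MEG3 with PEG3, and the other neighbours in this order did not overlap between libraries.

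The first comparison asks what changed over 4 days of growth to confluence, before any differentiation agent was added. The sample table also enters these days under different coatings (LN-521 on day 0, LN-521 with LN-221 on day 4), which cannot be told apart from the time in culture. Of the 8 members tested by edgeR's quasi-likelihood test, 0 passed an adjusted p-value of 0.05 and 0 had an unadjusted p-value under 0.05, and DESeq2 and limma gave 0 as well. Over all 20964 genes tested, 0 (0.00%) passed and 741 had an unadjusted p-value under 0.05, so the absence of calls is not particular to the members. H19 stood at 5.67, 3.96 and 6.57 TPM in the day 0 libraries, and the day 4 libraries held 6.58, 5.82 and 6.60 TPM. For DLK1 the values were 4.83, 1.54 and 6.65 TPM and then 12.4, 8.78 and 3.75 TPM. DLK1 had a log2 fold change of 0.85 (SE 0.66). The 2 days overlapped for both genes. MEG3 and PEG3 had too few counts to be tested.

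Between day 4 and day 9, after CHIR99021 and IWP2, 5 members rose and 2 fell among the 9 tested. The background was large: 49.0% of the 21252 genes tested passed, 24.3% higher and 24.7% lower on day 9, and the 7 of 9 members are to be read against that share. The median log2 fold change was 2.45 over the 9 members tested and 0.01 over all genes. The largest increases were in IGF2 and H19, neighbours on chromosome 11 (GRCh38, IGF2 from 2129112 to 2158391 and H19 from 1995166 to 2004552, both on the minus strand). In bulk RNA, more cells that express a gene cannot be told apart from more RNA per cell, and this holds for every difference given here.

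IGF2 stood at 1.70, 2.55 and 1.93 TPM in the 3 day 4 libraries. On day 9 it stood at 178 TPM in plate 2, 552 TPM in plate 6_1 and 55.7 TPM in the library without a plate number. The days were far apart, yet the day 9 libraries differed by 9.91-fold among themselves. The log2 fold change was 6.96 (SE 0.85, edgeR adjusted p = 0.000450), a 124-fold increase, and 5.94 without plate 6_1. H19 went from 6.58, 5.82 and 6.60 TPM to 263, 994 and 105 TPM in the same libraries, with a log2 fold change of 6.12 (SE 0.82, edgeR adjusted p = 0.000689), and 4.96 without plate 6_1. Its order over the day 9 libraries was that of IGF2. IGF2 shares 20.4% of its exon bases with the readthrough gene INS-IGF2, which held 63 counts over all libraries, and 333 bases with the antisense gene IGF2-AS, which held 2744. IGF2-AS itself rose, from a mean of 0.07 to 12.5 TPM (log2 fold change 7.33, SE 1.14, edgeR adjusted p = 0.00141). Whether the counting used strand is not stated, so over the shared bases reads of the sense and antisense gene cannot be told apart.

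PLAGL1, on chromosome 6 from 143940300 to 144064599, rose from 0.35, 0.46 and 0.41 TPM to 4.97, 13.4 and 2.54 TPM (log2 fold change 4.08, SE 0.59, edgeR adjusted p = 0.00104), and the change was 3.31 without plate 6_1. Its day 9 libraries held the same order as those of H19 and IGF2. PEG10, on chromosome 7 from 94656325 to 94669695, rose from 86.4, 72.8 and 79.7 TPM to 531, 302 and 435 TPM, a change of 2.45 on the log2 scale (SE 0.25, edgeR adjusted p = 0.000138). This was the member increase with the smallest standard error, and plate 6_1, highest for IGF2, was the lowest for PEG10. DLK1 lies on chromosome 14 from 100725705 to 100738224, and its day 9 libraries held 50.8, 13.9 and 151 TPM. Its log2 fold change was 3.16 (SE 0.88, edgeR adjusted p = 0.0217), but the 2 days overlapped in normalised counts (18.3 CPM in day 4 plate 1 against 18.2 CPM in day 9 plate 6_1). The call was lost without the day 9 library that has no plate number (log2 fold change 2.02, edgeR adjusted p = 0.125), without the day 4 library of plate 2 or plate 5 (0.0661 and 0.0589), and with no filter on low counts (0.144).

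**Figure D2:**
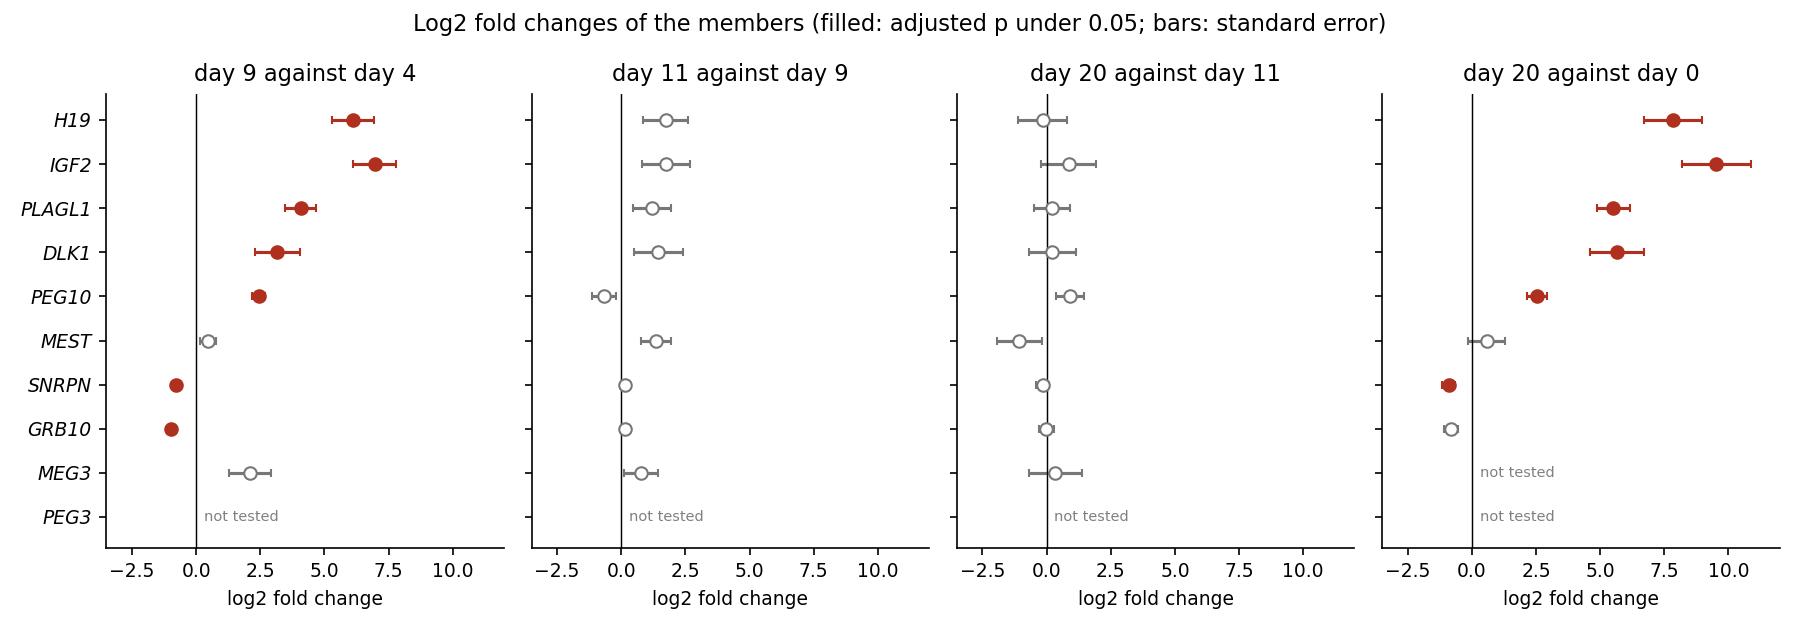
Points give the log2 fold change of each member in 4 comparisons of days, with bars of 1 standard error and filled red points for an adjusted p-value under 0.05 (edgeR). Filled points appear for 7 members in day 9 against day 4 and for 6 in day 20 against day 0, and in neither comparison between them.

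Both members that fell did so by less. GRB10, on chromosome 7 from 50590063 to 50793462, went from 57.5, 59.0 and 45.3 TPM to 25.9, 32.8 and 23.6 TPM, a log2 fold change of −0.96 (SE 0.15, edgeR adjusted p = 0.000870). SNRPN, on chromosome 15 from 24823637 to 24978723, went from 77.5, 68.5 and 86.5 TPM to 38.8, 58.5 and 38.1 TPM, a log2 fold change of −0.77 (SE 0.15, edgeR adjusted p = 0.00344). The day 4 and day 9 libraries did not overlap for either gene. In normalised counts 6 of the 9 members tested did not overlap between these days, where 59.8% of all genes tested did not. SNRPN shares 43.9% of its exon bases with other genes, among them SNURF and SNHG14 on the same strand. Both fell as well: SNHG14, the long host transcript of the snoRNA clusters, had a log2 fold change of −2.31 (SE 0.16, edgeR adjusted p = 1.76e-05) and SNURF one of −2.07 (SE 0.31, edgeR adjusted p = 0.000861). How the counting split reads among these overlapping genes is not known.

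MEST and MEG3 did not pass between days 4 and 9. MEST lies on chromosome 7 from 130486171 to 130506465. Its day 4 libraries held 175, 174 and 179 TPM and those of day 9 held 156, 407 and 178 TPM (log2 fold change 0.47, SE 0.30, edgeR adjusted p = 0.228). Its 3 day 4 libraries were almost level, and the single high day 9 value was in plate 6_1. MEG3 lies on chromosome 14 from 100779410 to 100861031. Its day 4 libraries held 0.20, 0.03 and 0.02 TPM and those of day 9 held 0.45, 0.13 and 0.55 TPM (log2 fold change 2.09, SE 0.82, edgeR adjusted p = 0.0676). DESeq2 and the block on the sequencing lane put MEG3 past the threshold, with adjusted p-values of 0.0198 and 0.0115, as did leaving out day 4 plate 1 (0.0137) or day 9 plate 6_1 (0.0140). At these levels a library held few MEG3 reads, and the days overlapped.

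The question that the bulk libraries were used for is how day 11 committed progenitors differ from day 9 cells. Of the 9 members tested, 0 had an adjusted p-value under 0.05 by edgeR, 0 had an unadjusted p-value under 0.05, and DESeq2 and limma gave 0. With the plate number as a replicate block, 4 of the 9 passed as higher on day 11: MEST (log2 fold change 1.69, edgeR adjusted p = 7.9e-05), PLAGL1 (1.37, 0.0188), IGF2 (1.92, 0.0299) and H19 (1.94, 0.0438). The block rests on the numbers 2 and 6 (6_1 on day 9), which occur on both days. Day 11 plate 5 and the day 9 library without a plate number each stand alone in a block, so they add nothing to that estimate. Plate 5 was the lowest day 11 library for all 4 genes. The labels do not say that libraries with the same number come from the same plate. Among all 20679 genes tested, 2.39% passed without the block, and 1971 genes passed with it. The median log2 fold change was 1.20 over the members and 0.00 over all genes. H19 had a log2 fold change of 1.74 (SE 0.88, edgeR adjusted p = 0.379), IGF2 of 1.74 (SE 0.94, edgeR adjusted p = 0.412), DLK1 of 1.45 (SE 0.94), MEST of 1.36 (SE 0.59), PLAGL1 of 1.20 (SE 0.73) and PEG10 of −0.67 (SE 0.46). For SNRPN and GRB10, whose replicates lay close together, the log2 fold changes were 0.14 (SE 0.16) and 0.13 (SE 0.16).

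Replicates of the same day differed widely in these genes. On day 11, H19 stood at 1700 TPM in plate 2, 406 TPM in plate 5 and 2391 TPM in plate 6, IGF2 at 1113, 158 and 1330 TPM, PLAGL1 at 20.6, 4.24 and 23.3 TPM and MEST at 677, 206 and 1026 TPM. In all 4 genes plate 6 was highest and plate 5 lowest. DLK1 stood at 119, 441 and 71.4 TPM and MEG3 at 0.46, 1.26 and 0.34 TPM, with plate 5 highest and plate 6 lowest. PEG10, at 217, 147 and 469 TPM, had the order of H19. SNRPN, at 51.2, 53.9 and 49.1 TPM, and GRB10, at 27.8, 29.9 and 35.2 TPM, varied little. On day 9 plate 6_1 was highest for H19, IGF2 and PLAGL1 and lowest for DLK1 and MEG3, and the library without a plate number was the reverse. MEST and PEG10 did not keep to this: on day 9 MEST was highest in plate 6_1 but lowest in plate 2, and PEG10 was highest in plate 2 and lowest in plate 6_1. The plate numbers 2 and 6 (6_1 on day 9) occur on both days, which does not make the libraries pairs. Under both numbers H19, IGF2, PLAGL1, DLK1 and MEST were higher in the day 11 library than in the day 9 library. Of these 5, DLK1 did not pass with the plate as a block (edgeR adjusted p = 0.176).

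Markers of other cell types differed between the same libraries. The 12 yolk sac and liver markers summed to 2311, 1148 and 3548 TPM in plates 2, 5 and 6 on day 11, and the 12 mesenchymal and fibroblast markers to 3850, 1699 and 7875 TPM, in the order of H19 and IGF2. The 12 cardiomyocyte markers summed to 9280, 27526 and 7268 TPM, in the order of DLK1. Single genes weighed heavily in these sums: on day 11 MYH6 and MYL7 averaged 5069 and 3930 TPM in the cardiomyocyte list. COL3A1 averaged 1995 TPM in the mesenchymal list. On day 9 the yolk sac and liver markers summed to 479, 1514 and 398 TPM in plate 2, plate 6_1 and the library without a plate number, again in the order of H19, but the cardiomyocyte markers, at 901, 2021 and 565 TPM, had that order too, and the mesenchymal and fibroblast markers, at 1396, 2961 and 2245 TPM, did not. The 10 trophoblast markers had the order of H19 on both days, at 421, 632 and 327 TPM on day 9 and 660, 391 and 1077 TPM on day 11. Most of these sums was HAND1, which alone averaged 381 TPM on day 9 and 598 TPM on day 11. GATA3 averaged 67.8 TPM on day 9 and CGA 76.0 TPM on day 11. Between 3 and 7 of the 10 were over 1 TPM, and ELF5, GCM1 and CGB5 averaged at most 0.153 TPM on these days. The 10 epithelial markers had the order of H19 on day 11 only, at 5067, 4312 and 5940 TPM. The 10 pluripotent cell markers had it on day 9 only, at 2214, 2542 and 2064 TPM. The order of DLK1 was that of the 10 neural markers on both days, at 359, 331 and 437 TPM on day 9 and 563, 1397 and 366 TPM on day 11. In that list NES alone averaged 261 TPM on day 9 and 717 TPM on day 11. The 10 endothelial markers had neither order. With only 3 libraries a day, a list can share the order of a gene by chance. Between 8 and 12 of the yolk sac and liver markers were over 1 TPM on days 9 and 11, against 4 or 5 on days 0 and 4. The part of these cells in the levels of the imprinted genes was not tested.

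**Figure D3:**
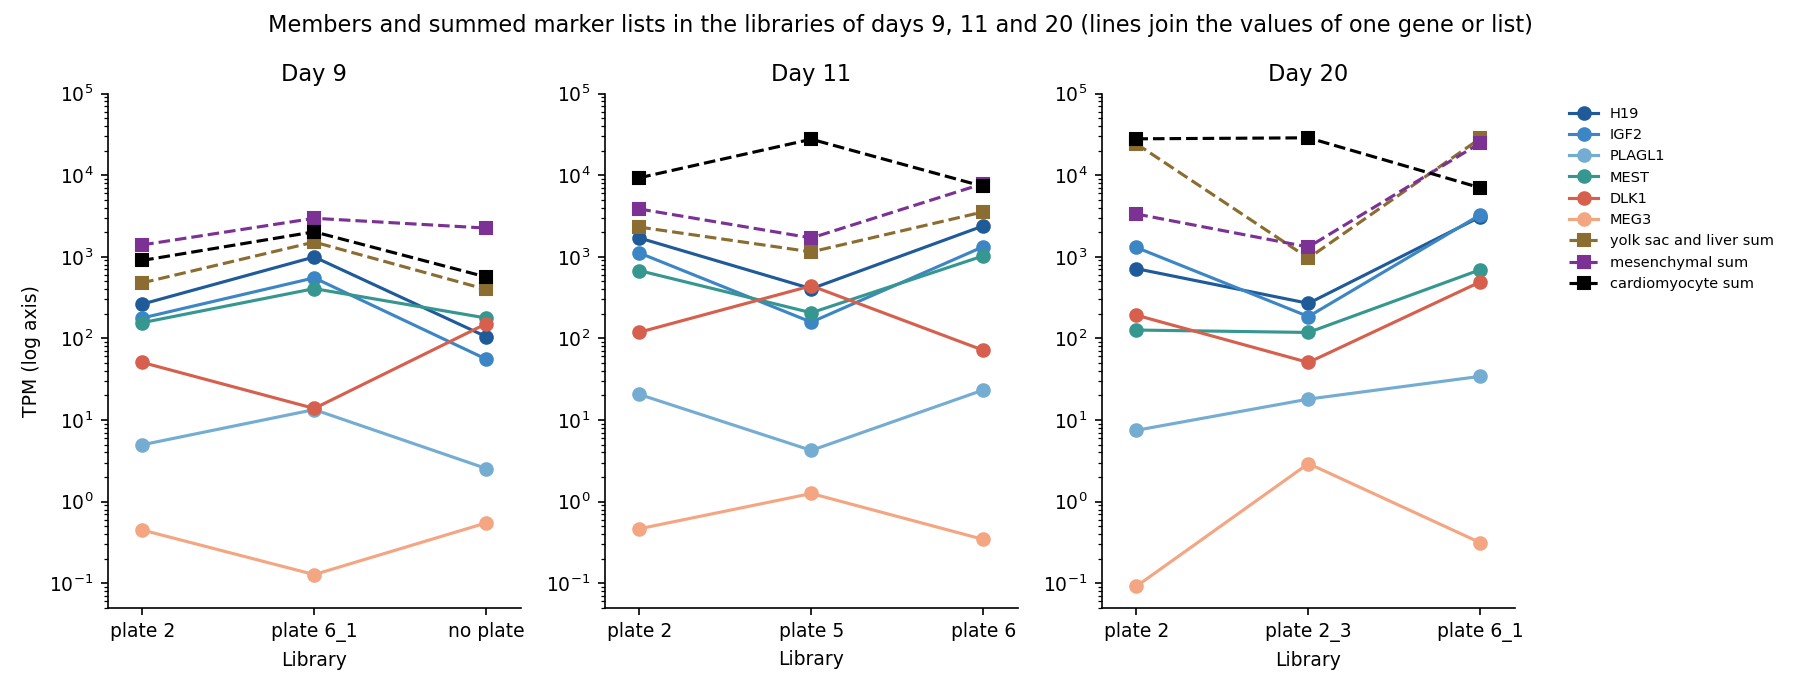
TPM on a log axis for 6 members (circles) and the summed TPM of 3 marker lists (squares) in each library of days 9, 11 and 20, with lines joining the values of 1 gene or list. On days 9 and 11 the curve of DLK1 turns opposite to those of H19, IGF2 and PLAGL1, and on day 20 it turns the same way as those of H19 and IGF2.

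From day 11 to day 20 no member passed, with or without the plate as a block. Of 9 tested, 0 had an adjusted p-value under 0.05 by edgeR, 0 an unadjusted p-value under 0.05, and DESeq2 and limma gave 0, with 1.55% of 21398 genes past the threshold. The day 20 libraries were again far apart. IGF2 stood at 1299 TPM in plate 2, 185 TPM in plate 2_3 and 3274 TPM in plate 6_1, H19 at 715, 269 and 3092 TPM, MEST at 127, 118 and 695 TPM and DLK1 at 192, 50.7 and 493 TPM. Plate 6_1 was highest in all 4 and plate 2_3 lowest. The yolk sac and liver markers summed to 24180, 961 and 28281 TPM in these libraries, the mesenchymal and fibroblast markers to 3339, 1316 and 24834 TPM and the cardiomyocyte markers to 27846, 28651 and 6986 TPM. Here DLK1 had the order of H19 and IGF2, whereas on day 11 it had the reverse. PEG10, at 519, 396 and 748 TPM, and PLAGL1, at 7.48, 18.0 and 34.3 TPM, also peaked in plate 6_1. SNRPN at 60.4, 51.0 and 39.5 TPM and GRB10 at 39.7, 31.5 and 29.3 TPM were lowest there.

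Over the whole course, from day 0 to day 20, 5 of the 8 members tested rose and 1 fell, where 27.4% of the 21988 genes tested passed, 16.1% higher and 11.3% lower on day 20. IGF2 had a log2 fold change of 9.53 (SE 1.33, edgeR adjusted p = 0.00213), a 739-fold increase, and 10.09 without plate 2_3. By mean TPM it ranked 7 among the 10 members on day 0 and 1 on day 20. H19 had a log2 fold change of 7.83 (SE 1.12, edgeR adjusted p = 0.00236), DLK1 of 5.65 (SE 1.04, edgeR adjusted p = 0.00604), PLAGL1 of 5.52 (SE 0.65, edgeR adjusted p = 0.00106) and PEG10 of 2.54 (SE 0.40, edgeR adjusted p = 0.00343). None of these 5 genes overlapped between the 2 days (46.4% of all genes tested did not), and all 5 also passed without the library of plate 2_3, with log2 fold changes of 8.35 for H19, 6.17 for DLK1, 5.70 for PLAGL1 and 2.83 for PEG10. Plate 6_1 moved 4 of them further: without it the log2 fold change was 8.36 for IGF2, 6.23 for H19, 4.54 for DLK1 and 4.61 for PLAGL1, and all 4 still passed. SNRPN had a log2 fold change of −0.91 (SE 0.27, edgeR adjusted p = 0.0367), a call that was lost without any one of the day 0 libraries or without plate 6_1, where the adjusted p lay between 0.0933 and 0.133. GRB10 had a log2 fold change of −0.83 (SE 0.27) and an edgeR adjusted p of 0.0553, and 0.0457 without plate 2_3. MEST, highest of the members on day 0, had a log2 fold change of 0.58 (SE 0.72, edgeR adjusted p = 0.593), which was −0.999 without plate 6_1 and 1.02 without plate 2_3. The day 20 order by mean TPM was IGF2, H19, PEG10, MEST, DLK1, SNRPN, GRB10, PLAGL1, MEG3 and PEG3, and the libraries of all neighbours overlapped except those of PLAGL1 and MEG3.

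PEG3 stayed near the lower limit of the assay, and MEG3 was low on every day. MEG3 held 34 to 103 counts in the day 11 libraries, where it lay above 100% of the silent genes. Those genes were chosen for low counts before day 20, so that comparison is not an independent one. On day 20 MEG3 stood at 0.09 TPM in plate 2, 2.93 TPM in plate 2_3 and 0.31 TPM in plate 6_1. Plate 2_3 is the library with reads in all 174 silent genes, and its 11.5 reads per kilobase of MEG3 were close to the silent median of 11.0, with 53.4% of the silent genes below it. PEG3, on chromosome 19 from 56810077 to 56840728, had 67 reads over the 15 libraries, 53 of them in plate 2_3, where its 5.71 reads per kilobase were above 18.97% of the silent genes. The highest PEG3 count in any other library was 5, in day 11 plate 5, and it had 0 counts in 8 libraries. A count of 0 allows up to 3 counts, which is 0.0896 to 0.250 CPM in the 15 libraries and covers counting error only. The other 8 members held 70.8 to 1554 reads per kilobase in plate 2_3, so the silent median came to 0.705% to 15.5% of their level there.

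**Figure D4:**
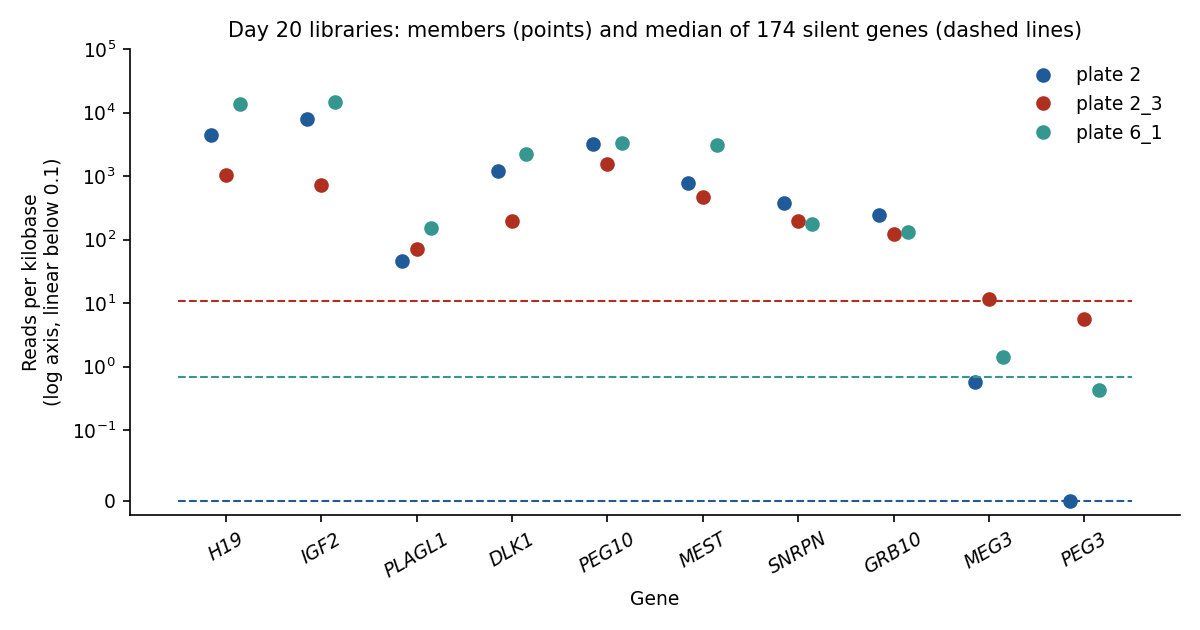
Reads per kilobase (log axis, linear below 0.1) of each member in the 3 day 20 libraries, with dashed lines at the median of 174 silent genes in the library of the same colour. In plate 2_3 the points of MEG3 and PEG3 lie at or below the dashed line, and those of the other 8 members above it.

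The neighbouring pairs were also compared within libraries, as the log2 ratio of their TPM after adding 0.1. H19 stood above IGF2 in all 12 libraries of days 0, 4, 9 and 11, at 2.22 to 4.15 TPM of H19 per TPM of IGF2 on day 0 and 1.53 to 2.57 on day 11. On day 20 it stood at 0.550, 1.45 and 0.945, thus below IGF2 in plates 2 and 6_1. The mean log2 ratio was 1.59 ± 0.38 (SD, n = 3) on day 4 and 0.78 ± 0.19 on day 9, a difference of −0.82, and 0.94 ± 0.38 on day 11 and −0.14 ± 0.70 on day 20, a difference of −1.07 (−1.41 without plate 2_3). The libraries did not overlap in either case (two-sided exact permutation test, p = 0.1 for each, the smallest that 3 replicates against 3 allow, so p = 0.05 could not be reached). The smaller steps, from day 0 to 4 and from day 9 to 11, had p = 0.9 and p = 0.7 in the same exact test. Adjustment over the 8 ratio comparisons could not bring any of them below 0.1.

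MEG3 and DLK1 lie next to each other on chromosome 14, and DLK1 was the higher of the pair in every library. DLK1 held 52.8 to 202 times the TPM of MEG3 on day 0, 62.3 to 275 times on day 4, 108 to 276 times on day 9 and 207 to 350 times on day 11. On day 20 it held 2093 times in plate 2, 1575 times in plate 6_1 and 17.3 times in plate 2_3, the library in which MEG3 was at the level of silent genes. MEG3 averaged 0.05 TPM on day 0 and stood at 0.20, 0.03 and 0.02 TPM on day 4, so the added 0.1 moves the log2 ratio on these days and no trend is read from it. Between days 4 and 9 the mean log2 ratio differed by −1.29 with the constant and by −0.04 without it. With the constant, none of the 4 steps between consecutive days passed (two-sided exact permutation test, p = 0.2, 0.2, 0.3 and 1). From day 11 to day 20 the difference was −0.29, and −2.30 without plate 2_3.

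**Figure D5:**
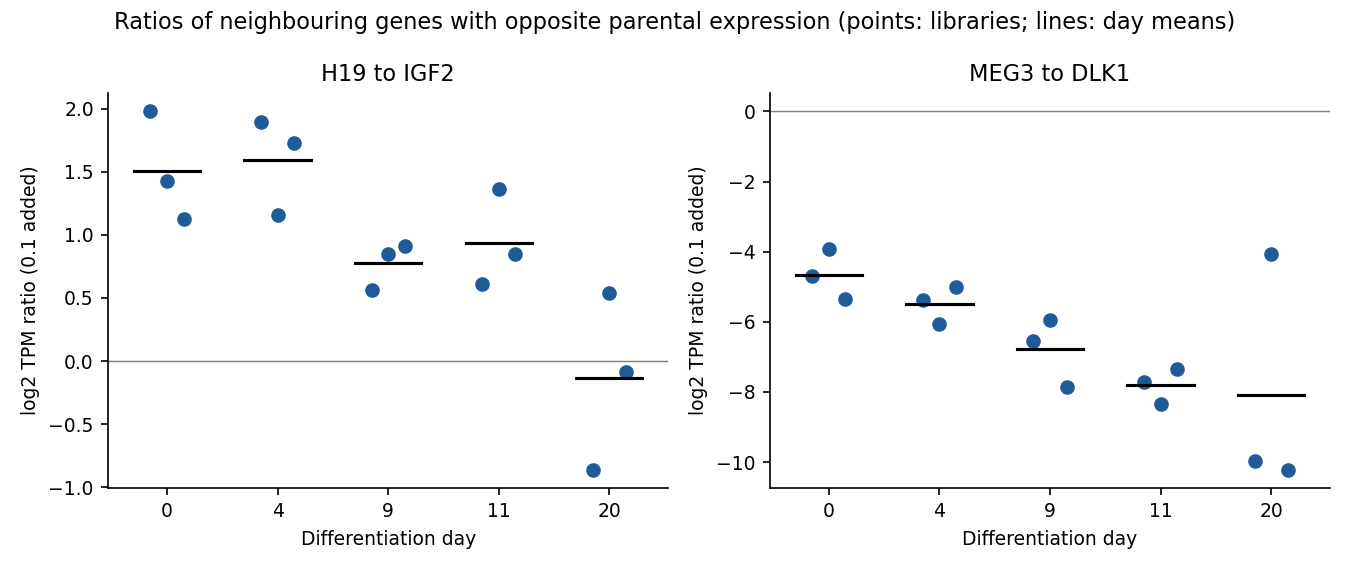
The log2 TPM ratio of H19 to IGF2 and of MEG3 to DLK1 (0.1 added to each TPM) in the 15 libraries by day, with a point per library and a line at the mean of 3. The H19 to IGF2 ratio lies above 0 in all libraries before day 20, and the MEG3 to DLK1 ratio lies below −3.9 throughout, with the point of plate 2_3 apart from the others on day 20. On days 0 and 4 the added 0.1 is of the size of the MEG3 level itself, so the early MEG3 to DLK1 points depend on it.

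Other genes of the same imprinted regions and of the pathway were taken from lists. Among 47 other imprinted genes, 35 were tested between days 4 and 9, of which 10 rose and 10 fell, where 49.0% of all genes tested passed. They had a median log2 fold change of −0.04 against the 2.45 of the 9 members tested. After IGF2-AS the largest increases were in DDC, an enzyme of monoamine synthesis (5.72), and in DIO3OS (4.89) and DIO3 (4.13), which lie at the far end of the DLK1 region. DIO3, which inactivates thyroid hormone, stood at 0.86, 1.44 and 2.16 TPM on day 4 and at 21.4, 26.2 and 28.3 TPM on day 9, so its day 9 replicates lay much closer together than those of DLK1. The noncoding genes between DLK1 and DIO3 stayed low: MEG8 was at most 1.18 TPM and MEG9 at most 1.02 TPM outside plate 2_3. The largest decreases were in TFPI2 (−2.76), SNHG14 and SNURF, followed by CALCR, the calcitonin receptor (−1.83), and PPP1R9A (−1.41). From day 9 to 11 TFPI2 alone passed among 38 tested, with an increase of 2.53, where 2.39% of all genes tested passed. From day 11 to 20 DIRAS3 (4.08) and ERAP2 (3.57) rose and NNAT (−2.27) fell, out of 40 tested, where 1.55% of all genes tested passed. From day 0 to 20, 12 rose and 4 fell of 39 tested, where 16.1% and 11.3% of all genes tested did.

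Of the 15 genes of the IGF axis, 14 were tested between days 4 and 9, and 5 rose and 4 fell, where 49.0% of all genes tested passed. PIK3R1, a regulatory subunit of PI3 kinase (log2 fold change 2.00), GRB14, a relative of GRB10 (1.90), and IRS1, a substrate of the insulin and IGF receptors (1.66), rose, with AKT1 (0.63) and IGF2BP2 (0.37). IGF2BP3, an RNA-binding protein named for IGF2 mRNA, fell (−1.28), as did INSR, the insulin receptor (−1.17), GRB2 (−0.55) and IGF2R, the receptor that clears IGF2 (−1.17). IGF2R stands in both this list and the list of imprinted genes. It stood at 139, 160 and 130 TPM on day 4 and at 43.9, 57.6 and 85.8 TPM on day 9, so it was lower in every library while IGF2 was higher. IGF1R, the receptor that transmits the IGF2 signal, stood at 91.1, 109 and 119 TPM on day 4 and at 69.7, 64.5 and 114 TPM on day 9 and was not among the genes that passed. Between days 9 and 11 and between days 11 and 20, 0 of the 14 passed by edgeR, with 3 and 4 at an unadjusted p-value under 0.05. Over all genes tested, 2.39% and 1.55% passed, and 3517 of 20679 and 3564 of 21398 had an unadjusted p-value under 0.05.

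A list of 15 factors held genes that set or keep imprints together with TET1, TET2 and TET3, of the family that oxidises 5-methylcytosine. All 15 were tested between days 4 and 9, and 4 rose and 7 fell, where 24.3% of all genes tested rose and 24.7% fell. DPPA3, which protects methylation in the early embryo, fell by 4.43 on the log2 scale, DNMT3B, a de novo DNA methyltransferase that is also on the list of pluripotent cell markers, by 3.64, DNMT3L by 2.67, CTCFL by 1.63 and DNMT1, the maintenance methyltransferase, by 0.71. TET2, which oxidises 5-methylcytosine, rose (1.12), with DNMT3A (0.68), SETDB1 (0.50) and ZNF445 (0.40). ZFP57, whose motif stands in the printed MEG3 and SNRPN stretches, stood at 0.66, 0.94 and 0.25 TPM on day 9 and at 6.43, 13.0 and 3.86 TPM on day 11 (log2 fold change 3.62, SE 0.61, edgeR adjusted p = 0.0308). On day 20 ZFP57 stood at 1.72 TPM in plate 2, 8.90 TPM in plate 2_3 and 0.52 TPM in plate 6_1. Plate 2_3 is the library with reads in all 174 silent genes. Methylation was not measured in these libraries.

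By Pearson's r of log2 CPM over the 15 libraries, among 12460 genes, the gene most like H19 was IGF2 (r = 0.992), followed by RSPO3 (0.984) and NR2F2 (0.984), and the genes most like IGF2 after H19 were CRTC3 (0.984) and ZCCHC24 (0.983). Among the genes closest to PLAGL1 were TSHZ1 (0.987) and LUM (0.985), a collagen-binding proteoglycan on the list of mesenchymal markers. DLK1 was most like ZNF467 (0.947), FOXJ2 (0.947) and C5 (0.944), none of which is another member. PEG10 was most like LMO4 (0.948), MEST most like NHERF1 (0.937), SNRPN most like MAGI1 (0.961) and GRB10 most like C19orf25 (0.963), with MAGI1 among the 3 closest genes of both SNRPN and GRB10. MEG3 and PEG3 never reached a mean of 10 CPM, and their closest genes, led by KIAA1328 (0.890) and MUC6 (0.934), rest on very few reads. These coefficients describe 15 libraries of which those of days 0 and 4 stand apart from the rest, and they share that step.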

How the data were processed

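The members and the gene lists were chosen with earlier results of these data known, and genes were named by a rule written with them: all members, at most 5 genes per direction and list, genes whose exons overlap a member, and the 3 genes most like each member, of which 1 is not reported here. The authors aligned paired-end reads (150 bases) with STAR 2.5.2b, counted them with featureCounts 1.5.1 against hg38 and deposited raw counts per gene, with ribosomal and mitochondrial genes removed. The authors also deposited TPM values, which keep no depth, and a sample table that gives, per library, a score for RNA integrity, the fraction of reads mapped uniquely, and other entries, among them the lane. The labels give day 9 where the methods list day 7, and call the replicates biological. Plates are named as in the sample titles.

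Counts were tested with edgeR 4.0.16 in R 4.3.3 by its robust quasi-likelihood test after TMM scaling, and genes were kept by filterByExpr (minimum count 10, minimum total 15), with the 6 libraries of the 2 days compared in each fit and no covariates. P-values were two-sided and adjusted by Benjamini-Hochberg over every gene in the fit, and 0.05 was the threshold. SE is the log2 fold change divided by the square root of F. Comparisons that share a day share its 3 libraries. Library totals of 11990302 to 33469703 counts, with the spread between replicates, set the precision. Symbols and coordinates come from GENCODE 44 (46872 of 48777 genes matched), and sequences from RefSeq (GRCh38). Alternatives were DESeq2 1.42.0, other scalings, no filter, all 15 libraries in one fit, limma 3.58.1 on log2(TPM + 1) and log2(TPM + 0.1), a fold change limit, plate or lane as a block, and each library left out. Ratios were tested by exact permutation in scipy 1.17.1. The methods were tested on simulated data.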

Additional observations from a re-analysis of the deposited data

How the results depend on the processing

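IGF2, H19, PLAGL1 and PEG10 passed the threshold between days 4 and 9, and between days 0 and 20, under every alternative run. Between days 4 and 9 the number of members past the threshold (7) ranged from 6 to 8 with a library left out and from 5 to 8 otherwise, and between days 0 and 20 (6) from 5 to 8 in both. SNRPN was lost there on TPM and without a filter, and GRB10 gained with DESeq2, upper-quartile scaling and all libraries in one fit. With the plate as a replicate block, fitted for day 11 against day 9 and day 20 against day 11, 4 members (PLAGL1, MEST, H19 and IGF2) passed between days 9 and 11 where 0 had, and 0 between days 11 and 20. The fit of days 9 and 11 rests on the libraries numbered 2 and 6 only. Libraries of days 9 and 11 with the same plate number correlated with r of 0.172 and 0.383 after removal of day means. Those of days 11 and 20 did so with −0.176, −0.0167 and 0.402, so the numbers were not taken as pairs. Over all genes, 1971 rather than 495 passed between days 9 and 11 with that block, 1674 with DESeq2, 1016 without a filter and 0 without day 9 plate 2. Between days 11 and 20 it was 3 rather than 332 with the plate block, 3132 with all libraries in one fit and 137 with the lane block, and 0 without day 11 plate 2 or plate 6. With a library left out the counts ranged from 0 to 573 and from 0 to 510. Between days 4 and 9 all libraries in one fit gave 6209 rather than 10406, and between days 0 and 20 they gave 10785 rather than 6027. With a fold change limit 6046 passed between days 4 and 9. Between days 0 and 4, 64 passed without a filter where 0 had. On TPM the median of all genes between days 0 and 20 was 0.25 rather than 0.11.

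The change of MEST between days 0 and 20 ranged from −0.999 to 1.016 with a library left out. The difference in the log2 ratio of MEG3 to DLK1 between days 11 and 20 (−0.29) ranged from −2.30 to 0.78 with a library left out, and that of H19 to IGF2 from −0.11 to 0.32 between days 0 and 4 and from −0.0475 to 0.33 between days 9 and 11. No other value named in the report turned direction. In the comparisons of days 0 and 4 and of days 11 and 20, where no member passed, the log2 fold change of a member turned direction in 11 of 112 and 20 of 144 fits and passed in none. The causes were not tested. Depth limits MEG3 and PEG3.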
